A study of Mus musculus with 9 samples.

Results

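Expression of 10 imprinted growth genes (H19, Igf2, Cdkn1c, Dlk1, Meg3, Mest, Peg3, Plagl1, Grb10 and Igf2r) was examined in cultured MEFs, the connective tissue cells that grow out of mouse embryos. The genes were taken as members of the imprinted network of embryonic growth, by symbol, and they are 10 of 20672 genes and 30 of 45101 probe sets on the arrays. H19, Igf2 and Cdkn1c, which head the set, were chosen by their log2 values in these same 3 groups. These genes are therefore described with their values and errors and with no p-value, and the other 7 were tested. The set and the gene lists below were also drawn up with earlier results of these data known. The p-values and counts for them are therefore descriptive and give no independent support. The samples fall into 3 groups of 3 arrays. The rescue group carries a short hairpin RNA (shRNA) against Foxk1 together with added Foxk1 (shFoxk1+Foxk1), the shFoxk1 group carries the hairpin alone, and the shGFP group carries a hairpin against GFP, a jellyfish protein that these cells have no reason to make. All 3 groups therefore carry a hairpin, and all were MEFs grown in DMEM. The sources used here give neither the mouse strain nor the embryonic age, nor whether a line is 1 clone or a pool, nor how much of Foxk1 was added back. Nothing says that replicates were separate cultures, so the spread that a p-value measures is that between these samples and may be technical.

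Imprinted genes are transcribed mainly from 1 parental copy, for many of them because DNA methylation set down in egg or sperm marks the parental copies differently. Many of them balance growth of the embryo and placenta, with paternally expressed genes such as Igf2 tending to promote growth and maternally expressed genes such as H19, Cdkn1c, Grb10 and Igf2r tending to restrain it. In the mouse many network genes are high in the embryo and decline after birth. Each array sums RNA from both parental copies, so the values below are total RNA levels and imprinting itself was not measured.

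Values are log2 expression per probe set, and a difference of 1 on this scale is 2-fold. Levels of different probe sets are not compared with each other, except where a gene or list is set against the median gene level. The array medians were 5.92 to 5.95, and across genes the within-group correlation was 0.998 to 0.999. Foxk1, the forkhead transcription factor targeted by the hairpin, read 8.04, 7.77 and 7.76 in rescue arrays, 7.75, 7.96 and 7.74 in shFoxk1 arrays and 8.98, 8.89 and 8.95 in shGFP arrays. It was lower in shFoxk1 cells than in shGFP cells by 1.12 on the log2 scale (log2 difference -1.12, limma adjusted p = 5.18e-05), and differed by 0.04 between rescue and shFoxk1 cells (adjusted p = 0.869). Averaged over the Foxk1 probe sets these differences were -0.49 (adjusted p = 0.000233) and 0.1 (adjusted p = 0.373). Neither the probe positions nor the added Foxk1 sequence is known here, so the array cannot tell whether added Foxk1 was made, and the rescue group is named by its label. All 10 fibroblast markers lay at or above the median gene level of 6.56, with a list mean of 11.56 to 11.62 in rescue, 11.55 to 11.58 in shFoxk1 and 11.48 to 11.50 in shGFP arrays. At or above that level were 0 of 6 trophoblast, 0 of 5 endothelial, 1 of 6 skeletal myoblast, 1 of 6 macrophage, 1 of 5 hepatoblast, 2 of 5 epithelial, 3 of 5 chondrocyte and osteoblast, and 4 of 5 neural markers. That cut sets different probe sets against a single level, so these counts do not settle which cell types were present.

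Within the set, H19 was higher and Cdkn1c lower in rescue cells than in shGFP cells, and Dlk1 rose. H19 had 2.11-fold more RNA in shFoxk1 cells than in shGFP cells and 2.39-fold more in rescue cells than in shGFP cells, so the array group with Foxk1 added back did not show shGFP levels. Cdkn1c in rescue cells stood at 57.9% of its shFoxk1 level. Igf2, the growth factor gene beside H19, differed by at most 0.04 in any comparison on its brightest probe set. Of the 7 tested genes, 0 passed the test in shFoxk1 against shGFP (3 at an unadjusted p under 0.05), where 4.24% of all genes passed. None passed in rescue against shFoxk1 (0 of 7, with 1 at an unadjusted p under 0.05 and 0.953% of all genes). In rescue against shGFP 1 of 7 passed, Dlk1 (2 at an unadjusted p under 0.05), where 5.04% of all genes passed. The test was limma with Benjamini-Hochberg adjustment over all 20672 genes, and a gene passed at an adjusted p under 0.05. With a variance trend and robust moderation, limma passed 2, 0 and 2 of the 7, beside 1530, 481 and 1640 of all 20672 genes. The share of all genes at an unadjusted p under 0.05 is not given here. The 3 comparisons share arrays, so their values for a gene are not independent.

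**Figure D1:**
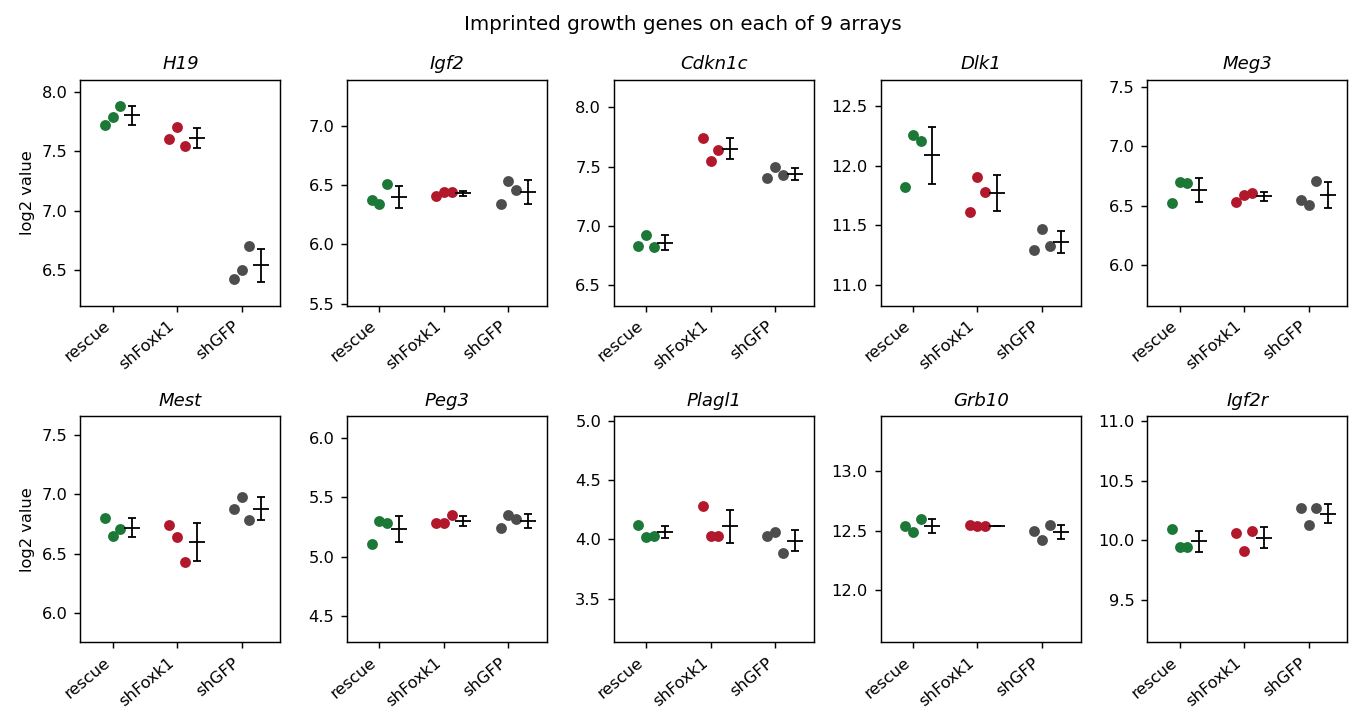
Log2 value (vertical axis) of each of the 10 imprinted growth genes, by its brightest probe set, on the 9 arrays (points) in rescue, shFoxk1 and shGFP cells, with the group mean and SD (bars). H19 lies at 7.54 to 7.88 on all 6 arrays with the Foxk1 hairpin, against 6.42 to 6.70 on shGFP arrays, and Cdkn1c lies at 6.82 to 6.92 on rescue arrays, below the other groups.

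H19 and Igf2 are neighbours on mouse chromosome 7 and share enhancers. H19 is a maternally expressed long non-coding RNA that restrains growth in the mouse and is the host of a microRNA, miR-675. H19 read 7.72, 7.79 and 7.88 in rescue arrays, 7.60, 7.70 and 7.54 in shFoxk1 arrays and 6.42, 6.50 and 6.70 in shGFP arrays. All 6 arrays with the Foxk1 hairpin lay above all 3 shGFP arrays, and the rescue arrays lay above the shFoxk1 arrays. The log2 difference was 1.07 (SE 0.08) for shFoxk1 minus shGFP, 0.18 (SE 0.08) for rescue minus shFoxk1 and 1.26 (SE 0.08) for rescue minus shGFP. Leaving out each array in turn kept them at 1.02 to 1.15, at 0.14 to 0.23 and at 1.20 to 1.33. H19 has 1 probe set, so no second probe set was available to set beside it.

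The H19 transcript contains the hairpin from which the microRNA is cut, and its sequences come from the RefSeq table. These arrays measured neither product. They are shown because H19 RNA is their precursor. RefSeq (GRCm38.p6) places mmu-miR-675-5p at chr7:142577112-142577133 and mmu-miR-675-3p at chr7:142577078-142577099, both on the minus strand, and the capitals mark the seed, bases 2 to 8, which pairs with target RNAs. Of the other mature microRNAs in that table, 0 share either seed.
mmu-miR-675-5p: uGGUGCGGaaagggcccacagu
mmu-miR-675-3p: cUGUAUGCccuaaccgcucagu

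Igf2 encodes the fetal insulin-like growth factor and is paternally expressed. Igf2 read 6.37, 6.34 and 6.51 in rescue arrays, 6.41, 6.44 and 6.44 in shFoxk1 arrays and 6.34, 6.53 and 6.46 in shGFP arrays. All groups overlapped in every comparison. The log2 difference was -0.01 for shFoxk1 minus shGFP (95% interval -0.15 to 0.13), -0.03 for rescue minus shFoxk1 (-0.16 to 0.11) and -0.04 for rescue minus shGFP (-0.17 to 0.10). The whole range of the 9 values was 0.19. The probe set sits under the median gene level of 6.56, and RMA values of dim probe sets are compressed, so a change in a low transcript may be understated. The dimmer of its 2 probe sets (mean 4.27) differed by 0.09 in shFoxk1 minus shGFP and by 0.10 in rescue minus shGFP, with overlapping groups.

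The IGF2 pathway has further members in the set. Igf2r encodes the receptor that takes IGF2 to the lysosome for breakdown and is maternally expressed in the mouse. Igf2r read 10.09, 9.94 and 9.94 in rescue arrays, 10.06, 9.91 and 10.08 in shFoxk1 arrays and 10.27, 10.13 and 10.27 in shGFP arrays. Every array with the Foxk1 hairpin lay below every shGFP array, and rescue and shFoxk1 arrays overlapped. The log2 difference was -0.21 for shFoxk1 minus shGFP (95% interval -0.35 to -0.06, limma adjusted p = 0.133) and -0.23 for rescue minus shGFP (-0.38 to -0.08, adjusted p = 0.0817). Neither passed. Without the first rescue array the second was -0.28 with an adjusted p of 0.0491. Leaving out any other single array gave no Igf2r call in either comparison. The next brightest Igf2r probe set differed by -0.21 and -0.28 in the same comparisons, and the dimmest by -0.04 and 0.05.

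Grb10 encodes an adaptor that damps insulin and IGF receptor signalling and is maternally expressed in most mouse tissues outside the brain. Grb10 read 12.54, 12.49 and 12.60 in rescue arrays, 12.55, 12.54 and 12.54 in shFoxk1 arrays and 12.50, 12.42 and 12.55 in shGFP arrays. The groups overlapped, and the log2 differences were 0.06 for shFoxk1 minus shGFP (SE 0.05, adjusted p = 0.653), 0.00 for rescue minus shFoxk1 (adjusted p = 0.999) and 0.06 for rescue minus shGFP (adjusted p = 0.623). A dimmer Grb10 probe set gave another picture. It read 6.59, 6.39 and 6.43 in rescue arrays, 6.48, 6.32 and 6.44 in shFoxk1 arrays and 6.68, 6.83 and 7.05 in shGFP arrays. The rescue and shFoxk1 arrays lay wholly below the shGFP arrays on this probe set. Its log2 difference was -0.44 (SE 0.09) for shFoxk1 minus shGFP, which passed with limma over all 45101 probe sets (adjusted p = 0.0319), and -0.38 for rescue minus shGFP, which did not (adjusted p = 0.0501). The middle probe set differed by 0.16 and by -0.06. Which Grb10 transcripts each probe set reads is not known here.

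Cdkn1c encodes p57Kip2, an inhibitor of cyclin-dependent kinases that halts the cell cycle. It is maternally expressed from a separate imprinted domain of chromosome 7. Cdkn1c read 6.83, 6.92 and 6.82 in rescue arrays, 7.74, 7.55 and 7.64 in shFoxk1 arrays and 7.40, 7.50 and 7.43 in shGFP arrays. The 3 groups did not overlap, with shFoxk1 highest and rescue lowest. The log2 difference was 0.20 (SE 0.06) for shFoxk1 minus shGFP, -0.79 (SE 0.06) for rescue minus shFoxk1 and -0.59 (SE 0.06) for rescue minus shGFP. The rescue level was thus 57.9% of the shFoxk1 level and 66.6% of the shGFP level. Leaving out each array in turn gave 0.15 to 0.25, -0.83 to -0.74 and -0.62 to -0.56. Cdkn1c has 1 probe set.

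Dlk1 and Meg3 share an imprinted domain on chromosome 12. Dlk1 is a paternally expressed transmembrane and secreted protein of the Delta family that holds back adipocyte differentiation. Dlk1 read 11.82, 12.26 and 12.21 in rescue arrays, 11.61, 11.91 and 11.78 in shFoxk1 arrays and 11.29, 11.47 and 11.33 in shGFP arrays. Each array with the Foxk1 hairpin lay above each shGFP array, and rescue overlapped shFoxk1. In rescue against shGFP Dlk1 rose by 0.73 (SE 0.11), or 1.66-fold, and the limma adjusted p was 0.00449. The shFoxk1 minus shGFP difference was 0.41 (95% interval 0.15 to 0.66) with an adjusted p of 0.0795, and the rescue minus shFoxk1 difference was 0.32 (0.07 to 0.58) with an adjusted p of 0.252. The first rescue array bears on both: without it these were 0.41 with an adjusted p of 0.0196 and 0.46 with an adjusted p of 0.0442. Leaving out any other single array gave no call for either difference. Fitted on only the 6 arrays compared, shFoxk1 against shGFP had an adjusted p of 0.0361. With array weights, or with arrays centred on their medians, neither difference passed. The single Dlk1 probe set is of a kind (_s_at) whose probes can match more than 1 transcript.

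The promoter of Dlk1 is printed because, of the 15 RefSeq start windows found for 8 members, it was the one that held the forkhead core motif. No window was found for H19 or Cdkn1c, which are named only. The motif TGTTTAC was searched on both strands (GTAAACA on the other) in the 250 bases before each start, and 1040 of 32851 windows (3.17%) hold it. Of the 15 member windows, 1 (6.67%) holds it. The Dlk1 window holds 2 copies, beginning 87 and 67 bases before the start, and 26 of all windows (0.0791%) hold 2 or more. The Dlk1 window was picked for holding the motif, so nothing is read from that rarity. The match describes letters only, and binding by Foxk1 was not measured. The sequence below is RefSeq GRCm38.p6, chr12:109452573-109452822, plus strand, with the motif in capitals.
Dlk1 promoter: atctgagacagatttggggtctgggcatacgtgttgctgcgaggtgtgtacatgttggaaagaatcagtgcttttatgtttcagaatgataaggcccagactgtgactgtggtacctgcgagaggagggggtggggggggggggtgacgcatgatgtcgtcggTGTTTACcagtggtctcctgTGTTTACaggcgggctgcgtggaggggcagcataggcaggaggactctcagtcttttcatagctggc

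Meg3 is the maternally expressed long non-coding RNA of the same domain. Meg3 read 6.52, 6.70 and 6.69 in rescue arrays, 6.53, 6.59 and 6.61 in shFoxk1 arrays and 6.55, 6.51 and 6.71 in shGFP arrays. The groups overlapped, with log2 differences of -0.02 (SE 0.07, adjusted p = 0.945) for shFoxk1 minus shGFP, 0.06 (adjusted p = 0.731) for rescue minus shFoxk1 and 0.04 (adjusted p = 0.792) for rescue minus shGFP. Across all 11 Meg3 probe sets the differences ran between -0.02 and 0.16, between -0.20 and 0.17 and between -0.10 and 0.23 in these comparisons, and 0 passed. The brightest Meg3 probe set averaged 6.60, close to the median gene level of 6.56, and the dimmer ones averaged 6.54 down to 4.03. A change in Meg3 may therefore be understated, as for Igf2. Whether Dlk1 and Meg3 differ in response was not tested.

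Mest, Peg3 and Plagl1 complete the set. Mest is a paternally expressed gene of the alpha/beta hydrolase fold family. Mest read 6.80, 6.65 and 6.71 in rescue arrays, 6.74, 6.64 and 6.43 in shFoxk1 arrays and 6.88, 6.98 and 6.78 in shGFP arrays. The shFoxk1 arrays all lay below the shGFP arrays, while rescue overlapped both. The log2 difference was -0.27 (95% interval -0.46 to -0.09, adjusted p = 0.109) for shFoxk1 minus shGFP, 0.12 (adjusted p = 0.568) for rescue minus shFoxk1 and -0.16 (adjusted p = 0.371) for rescue minus shGFP, so none passed.

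Peg3, a paternally expressed zinc finger protein gene, lay at 5.11 to 5.30 in rescue, 5.28 to 5.35 in shFoxk1 and 5.24 to 5.35 in shGFP arrays, with overlapping groups. Its log2 differences were 0.00 (adjusted p = 0.994) for shFoxk1 minus shGFP, -0.07 (adjusted p = 0.632) for rescue minus shFoxk1 and -0.07 (adjusted p = 0.606) for rescue minus shGFP. Plagl1 encodes a paternally expressed zinc finger factor that regulates other network genes in the mouse, H19 and Cdkn1c among them. Plagl1 lay at 4.02 to 4.12 in rescue, 4.03 to 4.28 in shFoxk1 and 3.89 to 4.06 in shGFP arrays, again with overlap. Its differences were 0.12 (adjusted p = 0.488), -0.06 (adjusted p = 0.779) and 0.06 (adjusted p = 0.728) in the same order. Both probe sets lie well below the median gene level, where the arrays resolve little.

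**Figure D2:**
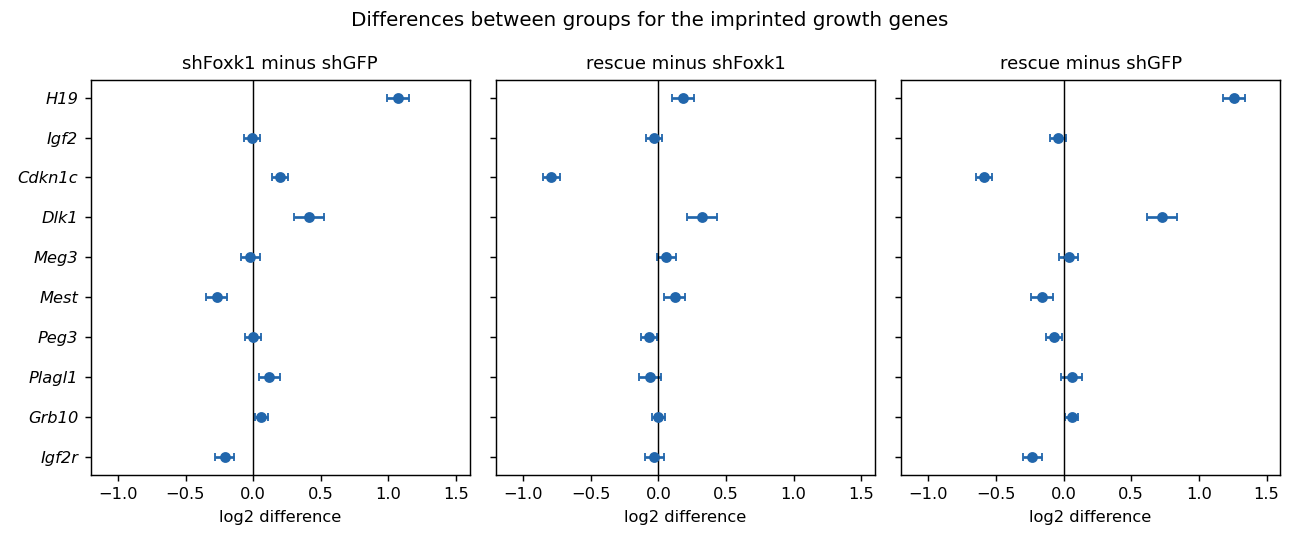
Log2 difference between group means (horizontal axis) of each imprinted growth gene for shFoxk1 minus shGFP, rescue minus shFoxk1 and rescue minus shGFP, with points for the fitted value and bars for its standard error. H19 stands at 1.07 and 1.26 against shGFP, Cdkn1c at -0.79 in rescue minus shFoxk1 and Dlk1 at 0.73 in rescue minus shGFP, and Igf2 lies near 0 in all 3.

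Counted over the whole set, the groups did not overlap for 5 of 10 genes in shFoxk1 against shGFP, 2 of 10 in rescue against shFoxk1 and 4 of 10 in rescue against shGFP. Over all genes those shares were 22%, 15.6% and 22.3%. The counts include H19 and Cdkn1c, whose differences were known when the set was drawn up, so nothing is read from them. The median log2 difference of the 10 was 0.029, -0.014 and 0.004, beside 0.003, 0.012 and 0.018 over all genes. The 7 tested genes had medians of 0.001, 0.0 and 0.044. In a bulk sample, fewer cells of a type and less RNA per cell cannot be told apart for any of these differences.

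Of the 10 genes, 4 have 1 probe set and 6 have several. Of the 26 probe sets of the 7 tested genes, 1 passed over all probe sets in shFoxk1 against shGFP, 0 in rescue against shFoxk1 and 1 in rescue against shGFP, beside 2.74%, 0.377% and 3.5% of all probe sets. The passing ones were the dim Grb10 probe set and that of Dlk1.

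**Figure D3:**
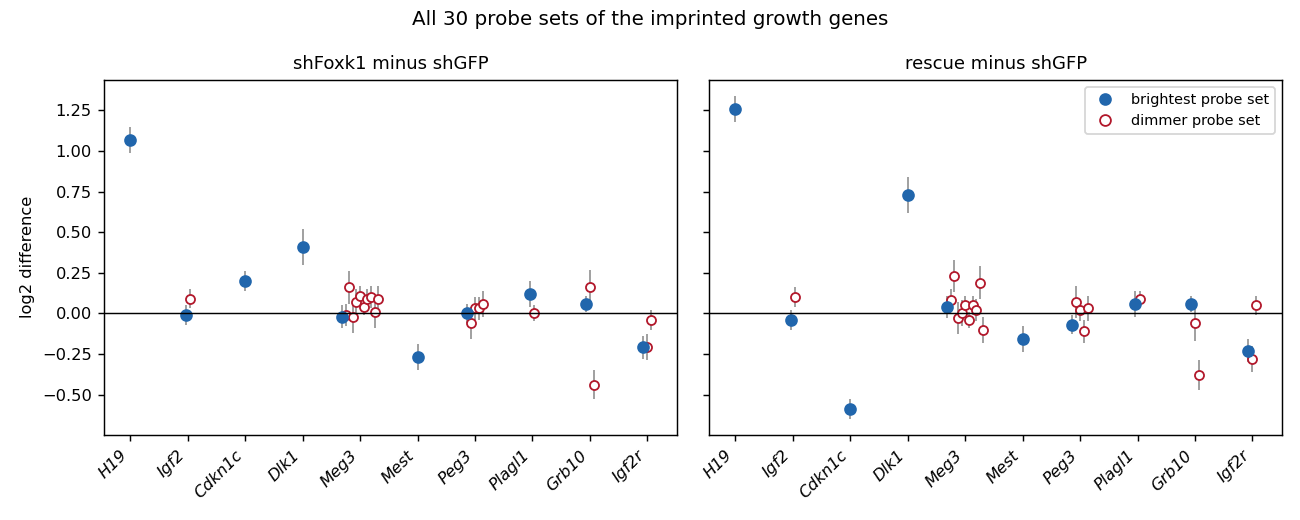
Log2 difference (vertical axis) of every probe set of the imprinted growth genes for shFoxk1 minus shGFP and rescue minus shGFP, with filled points for the brightest probe set of a gene, open points for dimmer ones and lines for the standard error. A dim Grb10 probe set lies at -0.44 and -0.38 while the brightest lies at 0.06, and the 11 Meg3 probe sets lie close to 0.

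Imprinted genes outside the set were counted to see how far such differences extended. Of 57 measured genes, 2 passed in shFoxk1 against shGFP (1 higher, 1 lower), 1 in rescue against shFoxk1 (higher) and 5 in rescue against shGFP (3 higher, 2 lower). Over all genes, 1.97% passed as higher and 2.26% as lower in shFoxk1 against shGFP, 0.653% and 0.3% in rescue against shFoxk1, and 2.5% and 2.54% in rescue against shGFP, so these counts lie near the background. The median difference of the 57 was -0.014, 0.035 and 0.001 in that order. Genes listed as paternally expressed gave 1, 0 and 1 of 23, and the gene that passed was Ndn. Genes listed as maternally expressed gave 1, 1 and 4 of 34. The split follows the lists as drawn up. Neither parental origin nor imprinting of these genes was measured in these cells.

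Ndn encodes necdin, a paternally expressed growth suppressor of the MAGE family. Ndn read 11.60, 11.53 and 11.50 in rescue arrays, 11.45, 11.41 and 11.40 in shFoxk1 arrays and 11.07, 10.95 and 11.07 in shGFP arrays. The 3 Ndn groups did not overlap, and their means had the same order as those of H19 and Dlk1. It rose by 0.39 (SE 0.05, adjusted p = 0.00171) in shFoxk1 against shGFP and by 0.52 (SE 0.05, adjusted p = 0.000336) in rescue against shGFP, while rescue minus shFoxk1 was 0.13 (adjusted p = 0.305). Averaged over its 8 probe sets, whose means ran from 3.88 to 11.33, the shFoxk1 minus shGFP difference was smaller, 0.25, and passed (adjusted p = 0.0116).

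Dcn encodes decorin, a small proteoglycan of collagen matrix, which in the mouse is imprinted mainly in placenta. Dcn read 12.09, 12.06 and 12.11 in rescue arrays, 11.37, 11.45 and 11.42 in shFoxk1 arrays and 11.69, 11.70 and 11.69 in shGFP arrays. Rescue was highest and shFoxk1 lowest, with no overlap. It fell by 0.28 in shFoxk1 against shGFP (log2 difference -0.28, SE 0.04, adjusted p = 0.0049), and rose by 0.67 in rescue against shFoxk1 (adjusted p = 0.000135) and by 0.40 in rescue against shGFP (adjusted p = 0.000619). Averaged over both its probe sets, the first was -0.15 and did not pass (adjusted p = 0.103). The dimmer Dcn probe set had a mean of 5.03, below the median gene level.

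Smaller differences in rescue against shGFP passed for Phlda2, Cd81 and Pon2. Phlda2, a maternally expressed gene that restrains placental growth and lies beside Cdkn1c, read 8.06, 7.98 and 7.96 in rescue arrays and 8.31, 8.43 and 8.20 in shGFP arrays and fell by 0.31 (log2 difference -0.31, SE 0.06, adjusted p = 0.0164). Cd81, a tetraspanin gene, rose by 0.20 (SE 0.04, adjusted p = 0.0233). Pon2, a paraoxonase gene, fell by 0.29 (log2 difference -0.29, SE 0.06, adjusted p = 0.0251). These calls were fragile to single arrays. Phlda2 lost its call without rescue 2, rescue 3, shGFP 1 or shGFP 2 (adjusted p up to 0.07), Cd81 without rescue 2, rescue 3 or any 1 of the shGFP arrays (up to 0.0862), and Pon2 without rescue 1, rescue 2, shGFP 1 or shGFP 3 (up to 0.105). Averaged over its 4 probe sets Pon2 was -0.12 and did not pass (adjusted p = 0.169), and 1 of them had the opposite sign (0.24). That probe set was dim (mean 4.57). The second brightest (mean 7.96) differed by -0.35 and did not pass over all probe sets (adjusted p = 0.0741).

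**Figure D4:**
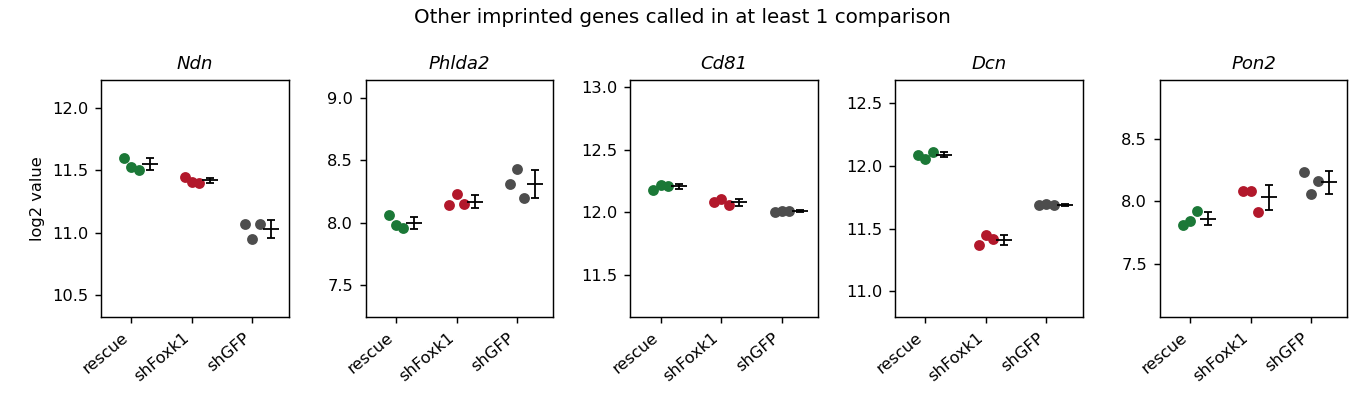
Log2 value (vertical axis) on each array of the imprinted genes outside the set that passed the test in at least 1 comparison, in rescue, shFoxk1 and shGFP cells, with group mean and SD. Ndn lies at 11.40 to 11.60 on the 6 arrays with the Foxk1 hairpin and at 10.95 to 11.07 on shGFP arrays, and Dcn is highest in rescue.

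Genes that lie near a member were counted within 500 kb in the RefSeq table, leaving out H19, Igf2 and Cdkn1c themselves. H19 and Igf2 each had 22 measured neighbours, 21 of them shared. Around each, 0 of 22 passed in shFoxk1 against shGFP or in rescue against shFoxk1, and 2 passed in rescue against shGFP, Lsp1 and Cd81, both higher. Around Cdkn1c, 2, 0 and 3 of 21 passed: Cars and Tnfrsf22 lower in shFoxk1 cells, and Phlda2 and Cars lower and Cd81 higher in rescue cells, each against shGFP. These neighbours were named after their values were seen. Cd81 was counted in the windows of H19, Igf2 and Cdkn1c alike. Of all genes, 4.24% passed in shFoxk1 against shGFP, 0.953% in rescue against shFoxk1 and 5.04% in rescue against shGFP. Whether the neighbour counts differ from those shares was not tested. Cars, which encodes cysteinyl-tRNA synthetase, fell by 0.29 in rescue against shGFP (log2 difference -0.29, adjusted p = 0.00594), but averaged over its probe sets it was -0.13 and did not pass (adjusted p = 0.135). In shFoxk1 against shGFP the Cars call was lost in 5 of 9 fits without 1 array (adjusted p up to 0.112) and averaged over its probe sets (-0.11, adjusted p = 0.244), and the Tnfrsf22 call was lost in 4 of 9 fits without 1 array (up to 0.0981). The Lsp1 call in rescue against shGFP was lost in 8 of 9 (up to 0.177). Elsewhere, Tmem209 near Mest was lower in rescue and in shFoxk1 cells, Fignl1 near Grb10 was higher in both, and Stx11 near Plagl1 was lower in shFoxk1 cells, each against shGFP. The Tmem209 calls were each lost in 6 of 9 fits without 1 array (up to 0.0903 in rescue and 0.119 in shFoxk1), the Stx11 call in 6 of 9 (up to 0.131) and the rescue call of Fignl1 in 7 of 9 (up to 0.119). As means of their probe sets, Tmem209 was -0.18 in rescue (adjusted p = 0.122) and -0.13 in shFoxk1 (adjusted p = 0.299), and Fignl1 was 0.07 in rescue (adjusted p = 0.481) and 0.16 in shFoxk1 (adjusted p = 0.0833), so none of these passed. With the replicate block, Stx11 was also higher in rescue than in shFoxk1 cells (0.29, adjusted p = 0.0323). The neighbours of Peg3 (17) and Igf2r (18) gave 0 in each comparison, as did the 5 around Dlk1. Near Meg3, 1 of 4 passed, which is Dlk1 itself in rescue against shGFP.

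The genes with log2 values most like those of H19 over the 9 arrays were Aqp1 (Pearson r = 0.996), Epb41l3 (0.985) and Ctdsp2 (0.984), out of 9899 genes ranked. Aqp1 averaged 10.65 in rescue, 10.56 in shFoxk1 and 9.81 in shGFP arrays. For Cdkn1c they were Ankrd1 (0.982), Ccn1 (0.973) and Plk2 (0.967), and Ankrd1 averaged 12.34 in rescue, 12.62 in shFoxk1 and 12.53 in shGFP arrays. For Igf2, with its narrow range, they were Rflna (0.908), Rpp40 (0.869) and Mapkapk2 (0.865). These r values describe arrays that fall into 3 groups and share their group differences, and carry no p-value.

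Lists of genes around the network were counted in the same fit. Of 12 IGF2 receptors, adaptors and RNA-binding proteins, 1 passed in shFoxk1 against shGFP, 0 in rescue against shFoxk1 and 1 in rescue against shGFP, in each case Irs1, the insulin receptor substrate. Over all genes 4.24%, 0.953% and 5.04% passed. At an unadjusted p under 0.05 there were 6, 2 and 1 of the 12, and 3, 0 and 1 passed with trend and robust moderation. With that moderation 1530, 481 and 1640 of all 20672 genes passed. Irs1 read 9.54, 9.42 and 9.43 in rescue arrays, 9.59, 9.53 and 9.52 in shFoxk1 arrays and 9.31, 9.18 and 9.21 in shGFP arrays. It rose by 0.31 (SE 0.06, adjusted p = 0.00957) in shFoxk1 and by 0.23 (adjusted p = 0.0424) in rescue, each against shGFP. The shFoxk1 call was lost without shFoxk1 1 (adjusted p = 0.0508) or shGFP 2 (0.0509), and the rescue call without any 1 array except shGFP 1 (up to 0.152). Of 22 measured factors of imprint control, DNA methylation and Polycomb repression, 0 passed in any comparison (5, 5 and 6 at an unadjusted p under 0.05; 1, 1 and 2 with a variance trend and robust moderation in limma). For neither list is the share of all genes at an unadjusted p under 0.05 given here, so nothing is read from those counts.

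Since Cdkn1c is a cell cycle inhibitor, proliferation and growth arrest genes were counted as well. Of 14 proliferation markers 0 passed in any comparison (4, 1 and 3 at an unadjusted p under 0.05; 3, 0 and 3 with trend and robust moderation), and their mean level was 11.75 to 11.76 in rescue, 11.77 in shFoxk1 and 11.72 in shGFP arrays. Of 14 quiescence and growth arrest genes, 2 rose and 1 fell in shFoxk1 against shGFP, 2 rose and 1 fell in rescue against shFoxk1, and 5 rose in rescue against shGFP. Over all genes 1.97% passed as higher in shFoxk1 against shGFP, 0.653% in rescue against shFoxk1 and 2.5% in rescue against shGFP. As lower, 2.26%, 0.3% and 2.54% of all genes passed in that order. At an unadjusted p under 0.05 there were 10, 4 and 8 of the 14, and 5, 3 and 6 passed with trend and robust moderation. With that moderation 1530, 481 and 1640 of all 20672 genes passed. The share of all genes at an unadjusted p under 0.05 is not given here. The list medians were 0.152, 0.065 and 0.173, beside 0.003, 0.012 and 0.018 over all genes, and its mean level was 9.44 to 9.58 in rescue, 9.42 to 9.48 in shFoxk1 and 9.29 to 9.34 in shGFP arrays.

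Members of that list followed different orders. Cdkn1a, which encodes the inhibitor p21, read 10.84, 10.87 and 10.78 in rescue arrays, 10.30, 10.33 and 10.20 in shFoxk1 arrays and 10.81, 10.78 and 10.86 in shGFP arrays. It was lowest in shFoxk1 cells, where Cdkn1c was highest, with log2 differences of -0.54 for shFoxk1 minus shGFP (adjusted p = 0.000257), 0.55 for rescue minus shFoxk1 (adjusted p = 0.00078) and 0.01 for rescue minus shGFP (adjusted p = 0.921). Gas6, a ligand of TAM receptors, was higher by 0.64 in shFoxk1 than in shGFP cells (adjusted p = 0.000368) and lower in rescue than in shFoxk1 cells (log2 difference -0.59, adjusted p = 0.00207), and averaged over its probe sets these differences were 0.39 and -0.34 and passed (adjusted p = 0.00376 and 0.0257). Ccng2, an atypical cyclin, rose by 0.79 in rescue against shFoxk1 (adjusted p = 0.00228) and by 0.99 against shGFP (adjusted p = 0.000213). Rbl2, which encodes the pocket protein p130, rose by 0.26 in shFoxk1 against shGFP (adjusted p = 0.0339), a call lost in 6 of 9 fits without 1 array (up to 0.137) and averaged over its probe sets (0.13, adjusted p = 0.142). In rescue against shGFP the kinase inhibitor genes Cdkn2b (0.23, adjusted p = 0.0152), Cdkn1b (0.37, adjusted p = 0.0204) and Cdkn2c (0.19, adjusted p = 0.0481) rose by small steps. Those calls were lost in 3, 5 and 7 of 9 fits without 1 array, and Cdkn1b averaged over its probe sets was -0.25 (adjusted p = 0.115), the opposite sign. Cdkn2c averaged in that way was 0.14 (adjusted p = 0.225).

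Cell type markers were counted in the same fit. Of the 10 fibroblast markers, 1 passed in shFoxk1 against shGFP, 0 in rescue against shFoxk1 and 2 in rescue against shGFP. Under trend and robust moderation 2, 1 and 5 passed. Of all genes, 4.24%, 0.953% and 5.04% passed in that order, and 1530, 481 and 1640 of 20672 under trend and robust moderation. Fn1 (fibronectin) rose by 0.54 in shFoxk1 (adjusted p = 0.000394) and by 0.65 in rescue (adjusted p = 0.000197), each against shGFP. On this probe set its group means had the same order as those of H19. Averaged over its probe sets Fn1 rose by 0.58 in shFoxk1 and 0.57 in rescue (adjusted p = 0.00278 and 0.00327). Rescue minus shFoxk1 was then -0.01 (adjusted p = 0.956), so that order was not kept. Col3a1 (a collagen) rose by 0.22 in rescue against shGFP (adjusted p = 0.0135), a call lost without rescue 3 or shGFP 2 (up to 0.0585), and its rescue minus shFoxk1 difference of 0.19 (adjusted p = 0.064) passed under trend and robust moderation (adjusted p = 0.000428). Csf1r, 1 of 6 macrophage markers, was lower by 0.38 in rescue and in shFoxk1 than in shGFP (log2 difference -0.38, adjusted p = 0.00237 in each). Averaged over its probe sets Csf1r was -0.24 in rescue and -0.27 in shFoxk1, which passed (adjusted p = 0.0105 and 0.0054). That list's mean was 5.82 to 5.90 in rescue, 5.80 to 5.86 in shFoxk1 and 5.87 to 5.90 in shGFP arrays. None of the other 7 marker lists had a member that passed in any comparison. Whether any of these has a part in the H19, Dlk1 or Cdkn1c differences was not tested.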

How the data were processed

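The authors deposited log2 expression values per probe set made with RMA in affy, per the submitters' processing notes, whose versions are unknown here. RMA equalises the arrays' distributions, so a difference in total RNA is removed. The authors' deposited tables also hold log2 fold changes, p-values and adjusted p-values, with t and B statistics, which are scores, per the file headers. They were used for symbols and as a check: p-values from limma over all probe sets differed from them by at most 1.23e-07 on the log10 scale. No scan batch was known.

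Of 45101 probe sets, 64 were controls and 38089 carried a symbol, updated through Entrez IDs in RefSeq (GRCm38.p6). Each gene took its brightest probe set over 9 arrays (20672 genes). limma 3.58.1 in R 4.3.3 fitted 1 mean per group over 9 arrays with eBayes (6 residual and 4.46 prior degrees of freedom), two-sided, with Benjamini-Hochberg adjustment over all genes, called at an adjusted p under 0.05. The median SE of a difference was 0.0642. The number of arrays limits the precision. The fit was tested on simulated data.

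Members and lists were chosen with earlier results of these data known. Named were all members and every called gene of the lists of other imprinted genes. Also named were at most 4 called genes per remaining list and comparison with the smallest adjusted p, Foxk1, and the 3 genes most like each of H19, Igf2 and Cdkn1c. Called neighbours of members were named in addition, after their values were seen. Same-numbered rescue and shFoxk1 arrays deviated together (r of deviations 0.23, 0.137 and 0.126), so a replicate block was also fitted, for all 3 comparisons. Among the named genes followed through the alternative fits, it changed the call of Stx11 alone in rescue against shFoxk1 (0.29, adjusted p = 0.0323). In shFoxk1 against shGFP, Dlk1 (adjusted p = 0.013), Cdkn1b (0.049) and Lsp1 (0.0452) gained a call with the block. In rescue against shGFP, Igf2r did (0.0366).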

Additional observations from a re-analysis of the deposited data

How the results depend on the processing

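Over all alternatives, 664 values of single called differences were computed: 549 kept their call, 114 lost it and 1 reversed, which is Cdkn1b in rescue against shGFP (-0.25 as the mean of its probe sets). Of 944 values of differences that were not called, 25 gained a call and 35 changed sign. Of 159 values of H19, Igf2 and Cdkn1c, 8 changed sign, all of Igf2, which lay near 0. Of the 7 tested members, the count passing in shFoxk1 against shGFP was 0; it was 2 without genes under the median level, 2 with trend and robust variance, 1 on the 6 arrays compared, 1 with the replicate block, and 0 to 1 without 1 array. In rescue against shFoxk1 it was 0, and 0 to 1 without 1 array. In rescue against shGFP it was 1; it was 0 without _x_at and _s_at probe sets, which removes Dlk1, 2 without genes under the median level, 2 with trend and robust variance, 2 with array weights, 2 with the replicate block, and 1 to 2 without 1 array. Of other imprinted genes, 2 passed in shFoxk1 against shGFP, with 4 under array weights and 2 to 4 without 1 array; 1 passed in rescue against shFoxk1, with 3 under trend and robust variance and 1 to 2 without 1 array; 5 passed in rescue against shGFP, with 2 to 5 without 1 array (2 without rescue 2; 3 without rescue 3, or any 1 shGFP array). Calls over all genes ranged over 460 to 1541, 74 to 481 and 567 to 1640.

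Pairing by replicate number is not stated in the labels. Same-numbered arrays deviated together by 0.07 to 0.147 in shFoxk1 and shGFP and by 0.06 to 0.188 in rescue and shGFP, and all 6 arrays of each comparison correlated best with their own number, a hint from the data only. With the block, calls over all genes were 1074, 244 and 1223 against 876, 197 and 1042, Dlk1 in shFoxk1 against shGFP had an adjusted p of 0.013, and Igf2r in rescue against shGFP 0.0366. The cause of these changes was not tested. Signal limits Igf2, Peg3 and Plagl1, which lie below the median gene level, and Meg3, whose brightest probe set lies close to it.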
